A study of Mus musculus with 6 samples.

Results

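In mural granulosa cells of mice, 537 back-splice junctions were left without a circRNA or ciRNA type by the authors' caller although a gene was named for them, and 1 of the 2 ends of each was labelled as lying outside exons. They were chosen as the untyped junctions with the region label exon-intergenic or intergenic-exon, a gene name and at least 10 back-splice reads over the 6 libraries, out of 316626 junctions in all. Of the 272509 untyped junctions, 19443 had 1 such end and 18051 of these named a gene, most of them with few reads (8795 with 1 read and 8719 with 2 to 9). The 537 members carried 284 exon-intergenic and 253 intergenic-exon labels and belonged to 368 gene entries, an entry being the gene name or names that the file gives. The members were thus selected on the read total, which is given below as a description only. A member with fewer than 10 reads in 1 group met the minimum only with the reads of the other group. Just inside the minimum, with 10 reads, were a junction of Ankrd44 (0, 4 and 1 reads at 4-h post-hCG, against 1, 1 and 3 reads at 0-h) and a junction of Rpe (0, 3 and 0, against 2, 0 and 5). Just outside it, with 9 reads, were a junction of Fam135a (3, 0 and 2, against 0, 1 and 3) and a junction of Aff3 (2, 3 and 0, against 0, 2 and 2).

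The study asked how the surge of luteinizing hormone changes circular RNA in mural granulosa cells, the wall lining of the preovulatory follicle. All 6 mice were wild-type (WT) females of the CF-1 strain that received 5 IU of equine chorionic gonadotropin (eCG, also called PMSG), which drives follicle growth, at 21 days of age. The 3 mice of the 4-h post-hCG group then received hCG (human chorionic gonadotropin), a ligand of the LH receptor, and were sampled 4 h later, and the 3 mice of the 0-h group were sampled 46 h after eCG alone. Total RNA of the cells expelled from punctured follicles gave 1 library per mouse.

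Back splicing joins the downstream end of an exon, its splice donor, to the upstream end of the same or an earlier exon, its splice acceptor, and closes the RNA between them into a circle. Splice acceptors are preceded in the intron by the letters AG, usually after a stretch rich in C and T, and donors are followed by GT. Such a junction can be typed as circRNA by the caller only where both ends are known exon boundaries, so an end at an exon that the annotation lacks leaves the junction untyped. Circular RNA has no free ends, and exonucleases that degrade linear RNA do not readily act on it.

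The letters next to the junctions came first from the genome. In 448 of the 537 members (83.4%, exact 95% binomial interval 80.0 to 86.5), AG preceded the acceptor and GT followed the donor on the annotated strand. Of 6968 typed circRNA with at least 10 reads, 99.7% had these letters. So did 57.6% of the 785 untyped junctions with both ends in exons, at least 10 reads and a chromosome whose sequence was read. The end outside the exons was the acceptor in 310 members and the donor in 227. The following windows of 30 bases in GRCm38, written 5′ to 3′ on the strand of the gene, show this non-exonic end for the members that the results below turn on, with the AG before an acceptor or the GT after a donor in capitals.
Slc8a1 acceptor, chr17:81649631-81649660, minus strand: ttttttttttttttaactgcAGgttggagc
Zranb1 acceptor, chr7:132948022-132948051, plus strand: tcagttttggtctcctttacAGgaatagct
Ogdh acceptor, chr11:6310987-6311016, plus strand: ccatggtcatctcttcttctAGaacgagaa
Etv6 acceptor, chr6:134062042-134062071, plus strand: aaaccgagacttgctgtttcAGctagactg
Peli2 donor, chr14:48179267-48179296, plus strand: tcgagggaagGTgcgtctggctcagcacag
Adnp donor, chr2:168197943-168197972, minus strand: agcaaatcagGTatgttttggtctgtgaac
Esr2 acceptor, chr12:76146076-76146105, minus strand: taatcttctttttattttccAGgctttttc
Lhcgr acceptor, chr17:88777759-88777788, minus strand: caggacaagtggtcatttatAGgatccttg
Runx1 acceptor, chr16:92682870-92682899, minus strand: gtacaaatggatttccccacAGatatttgt
Mast4,Gm6211 acceptor, chr13:103177138-103177167, minus strand: caatccttttctctgtttaaAGcacaaaag
Gm10800 acceptor, chr2:98667326-98667355, minus strand: tgtgtacctactttggaaacAGatgatttc

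The non-exonic acceptors of the AG and GT members carried C or T at a median of 75% of the 20 bases before AG (266 members), and the median was also 75% at the exonic acceptors of the other 182 such members and at 6949 acceptors of typed circRNA. The donors differed more. The letters GTAAG or GTGAG, read on the strand of the gene from the first base after the donor, followed 84 of 182 non-exonic donors (46.2%, exact interval 38.8 to 53.7), against 166 of 266 exonic donors of members (62.4%, 56.3 to 68.2) and 3998 of 6949 donors of typed circRNA (57.5%, 56.4 to 58.7). The intervals here cover counting error only, and members of 1 gene can share an end. The non-exonic end lay in soft-masked (repeat) sequence in 20.9% of members and the exonic end in 9.12%.

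The word intergenic in the region labels did not mean between genes. Against GENCODE M21, a later annotation of the same build, 390 of the 537 non-exonic ends (72.6%, exact interval 68.6 to 76.4) lay in an intron of the gene that held the exonic end, and 74 (13.8%) fell exactly on an exon boundary that M21 holds. A further 34 lay inside an M21 exon, 10 in an intron of another gene of the same strand, 8 in a gene of the other strand only, and 21 (3.91%) outside every gene. RefSeq listed an exon boundary at 72 further ends, so that 146 of 537 (27.2%) were annotated by at least 1 of both sources and 391 by neither. The share was 143 of 448 (31.9%) among members with AG and GT and 3 of 89 among those without.

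**Figure D1:**
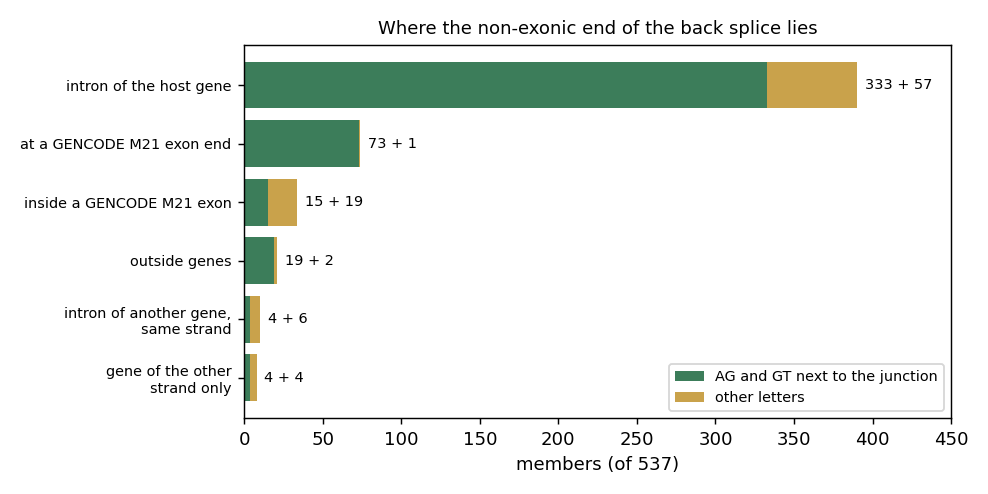
Number of members (horizontal axis, of 537) by the place of the non-exonic end in GENCODE M21, split by the letters next to the junction. The bar of host-gene introns holds 390 members, 333 with AG and GT and 57 with other letters, and 21 members have the end outside genes.

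Among the 384 members whose intron could be numbered, intron 1 of the host gene held 134 of the non-exonic ends (34.9%), intron 2 held 74 and intron 3 held 51. Their exonic end was at exon 2 in 140 (36.5%), at exon 3 in 71 and at exon 1 in 1. The circle spanned 1 annotated exon in 168 of the 384 and 2 annotated exons in 81. Members with AG and GT whose non-exonic end was at no boundary of M21 or RefSeq had it a median of 2916 bp from the nearest M21 boundary (305 members). The genomic span was 12295.5 bp as a median for members with AG and GT and 4148 bp for those without, against 8713.5 bp for typed circRNA and 2769 bp for untyped exon-exon junctions. It ran from 52 bp at Lrch1 (chr14:74807538-74807589) to 410301 bp for a junction that the file assigns to Glo1, U6 and Btbd9 (chr17:30513556-30923856).

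Over all 6 libraries, the members held 10 to 1143 back-splice reads, with a median of 17, and 310 of them had 10 to 19. The 10 most-read members held 26.5% of the 19392 reads of all members. Reads were found in all 6 libraries for 191 members (35.6%), against 46.4% of typed circRNA and 37.3% of untyped exon-exon junctions with at least 10 reads. The median was 21 reads in the typed class and 17 in the untyped exon-exon class. Reads were in 1 library only for 4 members, in AW554918, Prkca, Gm13125 and Ryk. The AW554918 junction among these is not the one described below. For each junction the file also gives a linear count, and members had a median of 4.94 back-splice reads per 100 linear counts, against 4.33 for typed circRNA.

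Slc8a1, which encodes a sodium-calcium exchanger and whose large second exon is a known source of circular RNA in heart, held the most reads. Its member, chr17:81647809-81649638, had 211, 130 and 192 reads at 4-h post-hCG and 239, 224 and 147 reads at 0-h, beside linear counts of 288, 228 and 250 at 4-h post-hCG and 317, 391 and 285 at 0-h. The groups overlapped in both measures. A single M21 exon runs from end to end of this junction, as it does in 5 other members (AC169518.1, Hdac4, Ntng1, Plce1 and Sipa1l2), and all junctions of Slc8a1 that were typed circRNA came to 85 reads, against the 1143 of the untyped one.

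Zranb1, the gene of a deubiquitinating enzyme, had an acceptor in intron 1 that RefSeq holds as an exon boundary and M21 does not (chr7:132948044-132950435). Its reads were 176, 68 and 99 at 4-h post-hCG and 154, 160 and 75 at 0-h, with overlap. The typed circRNA that ends at the same exon 2 donor of Zranb1 had 5 reads in all, against 732.

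Peli2, a ubiquitin ligase of the Pellino family, showed the mirror arrangement, with the exonic acceptor of exon 2 joined to a donor that M21 places inside an exon (chr14:48168197-48179276). It had 147, 107 and 131 reads at 4-h post-hCG and 89, 106 and 95 reads at 0-h. The raw reads of the groups did not overlap, but after scaling for library size they did, with a lowest value of 788 CPM (reads per 1e+06 junction reads, TMM-scaled) at 4-h post-hCG and a highest of 803 CPM at 0-h, and the log2 fold change of 0.45 had an adjusted p of 0.917 by edgeR's quasi-likelihood test. Adnp, which encodes a homeodomain protein of chromatin complexes, likewise joined the acceptor of exon 2 to a donor in intron 2 (chr2:168197963-168204774), with 42, 31 and 24 reads at 4-h post-hCG and 34, 53 and 30 reads at 0-h, which overlapped.

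In Atxn7, Ogdh and Etv6 the member shared its exonic end with a typed circRNA. Atxn7, a subunit of the SAGA histone acetyltransferase complex, had 313, 317 and 453 CPM at 4-h post-hCG and 153, 295 and 245 CPM at 0-h (chr14:13995007-14013655), without overlap, and an adjusted p of 0.88 by edgeR's quasi-likelihood test (log2 fold change 0.64). The typed circRNA at the same donor of Atxn7 held 871 reads, against 253 for the member. Ogdh, a subunit of the 2-oxoglutarate dehydrogenase complex, had 36, 43 and 37 reads at 4-h post-hCG and 46, 39 and 28 reads at 0-h (chr11:6311009-6317080), against 1135 reads for the typed circRNA over all libraries. Etv6, a transcriptional repressor of the ETS family, had 267, 265 and 227 CPM at 4-h post-hCG, against 191, 144 and 76.1 CPM at 0-h (chr6:134062064-134066465), again without overlap. Its log2 fold change of 0.86 had an adjusted p of 0.782 by edgeR's quasi-likelihood test, while its linear count, 201, 248 and 173 at 4-h post-hCG and 125, 152 and 138 at 0-h, passed the test with a log2 fold change of 0.68 (SE 0.166, adjusted p = 0.00377).

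**Figure D2:**
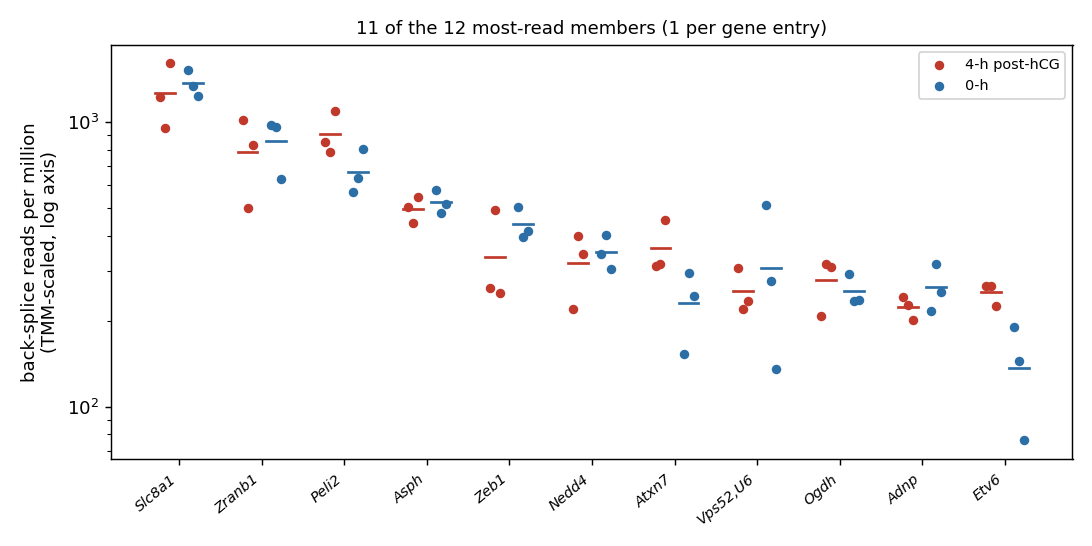
TMM-scaled CPM of back-splice reads (vertical log axis) for 11 of the 12 members with the most reads, at 1 member per gene entry, with 4-h post-hCG in red at the left and 0-h in blue at the right of each pair. Points are libraries and bars are the means of 3 mice. The groups of Atxn7 and Etv6 do not overlap, and those of the other 9 do.

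A gene entry held 1 member in 271 of 368 cases and 2 to 10 members in the others. Sema5a, which encodes a semaphorin, a guidance cue of the cell surface, had 7 members that joined 7 different acceptors upstream of exon 2 to the same donor of that exon, for 285 reads in all. Of the 7, 2 acceptors were M21 exon boundaries and 5 lay in intron 1 at no boundary of either source. The most-read, from chr15:32269683 to chr15:32347316, had 12, 22 and 20 reads at 4-h post-hCG and 11, 5 and 8 reads at 0-h, which overlapped after scaling, and an adjusted p of 0.782 by edgeR's quasi-likelihood test. The next, from chr15:32257995 to the same donor, had 7, 7 and 15 reads at 4-h post-hCG and 10, 20 and 8 reads at 0-h, also with overlap. The typed circRNA of exon 2 of Sema5a alone had 9 reads.

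Bmpr1b, the gene of a receptor for bone morphogenetic proteins that granulosa cells express, had 6 members, 4 of them with acceptors in intron 1 joined to the exon 2 donor. The most-read of these, chr3:141981921-142021519, had 27, 17 and 16 reads at 4-h post-hCG and 29, 37 and 10 reads at 0-h, with overlap, while the typed circRNA with that donor had 4 reads in all. Zranb1 also had 6 members, and the acceptor shown above served 3 of them, joined to the donors of exons 2, 3 and 6. In all, 483 distinct non-exonic ends were counted, and 41 of them were used by more than 1 member.

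Of the 537 members, 332 (61.8%) shared the exonic end with at least 1 typed circRNA, and the member had more reads than every typed circRNA there in 122 of the 332. In 147 members the untyped junction was the most-read back splice of its gene entry, and for 75 the gene entry had no read on a typed circRNA at all. The gene entry is the name as the file writes it, so that a gene listed under a joint name, as Adnp is with Gm20716, counts here as another entry.

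The 89 members without AG and GT held 3808 reads. In 29 of them, with 2078 reads (54.6%), both ends were displaced from M21 exon boundaries by the same number of bases in the same direction, by 1 to 6 bases (1 base in 8 members, 2 bases in 12 and 3 in 5). In all 29 the bases at both ends were identical over the displaced stretch, so that the junction read has the same sequence as the back splice between the exon boundaries. These pairs of 30-base windows show the bases that are alike at both ends in capitals, for 3 of the genes with the most such reads on 1 member.
Asph donor end, chr4:9635888-9635917, minus strand: tgccaaagttttattAGgcaagtactcttc
Asph acceptor end, chr4:9639335-9639364, minus strand: tttctctctccacacAGaggcaaagcacgg
Nedd4 donor end, chr9:72686103-72686132, plus strand: gaaaatcgtttGGTAagttctgtcacactg
Nedd4 acceptor end, chr9:72669940-72669969, plus strand: tttaaattatgGGTAtgggagttttgcctg
Zfp207 donor end, chr11:80398458-80398487, plus strand: tgttcagtctgAGGCaagtgggatttattt
Zfp207 acceptor end, chr11:80394273-80394302, plus strand: cgttactttatAGGCtcaggcagctgtcca

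At the exon boundaries themselves, the letters before the acceptor and after the donor were AG and GC in 15 of the 29, GG and GT in 10, AG and AT in 3 and AG and GG in 1, and AG and GT in none. Asph, which encodes an aspartate hydroxylase of the endoplasmic reticulum, had its member 2 bases from the boundaries (chr4:9635903-9639349), with 87, 60 and 65 reads at 4-h post-hCG and 91, 80 and 61 reads at 0-h. The typed circRNA at the boundaries, of the same sequence, had 309, 272 and 257 reads at 4-h post-hCG and 295, 292 and 218 reads at 0-h. The groups overlapped on both, and the reads of 1 sequence were thus entered under a typed and an untyped position in every library.

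Nedd4, a ubiquitin ligase, supplied 10 of the 29, all with the acceptor boundary at chr9:72669952, where GG stands in place of AG, and with 801 reads together. Its most-read member had 38, 54 and 41 reads at 4-h post-hCG and 54, 67 and 36 reads at 0-h, with overlap, and a second position of the same sequence had 104 reads. Vps52, a subunit of the tethering complex GARP, had 253 and 86 reads on 2 members that read the same, in an entry shared with U6. For Fat1, an atypical cadherin, 89 reads stood on the member and 946 on an untyped exon-exon junction of the same sequence. Of all 89 members without AG and GT, 56 had another position with the same joined sequence in the file, against 0 of 448 members with AG and GT, and 6 of the 89 had a typed circRNA of that sequence (Asph, Adamts9, Supv3l1, Senp6 and 2 of Nedd4). Counted by joined sequence, the 537 members were 530.

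**Figure D3:**
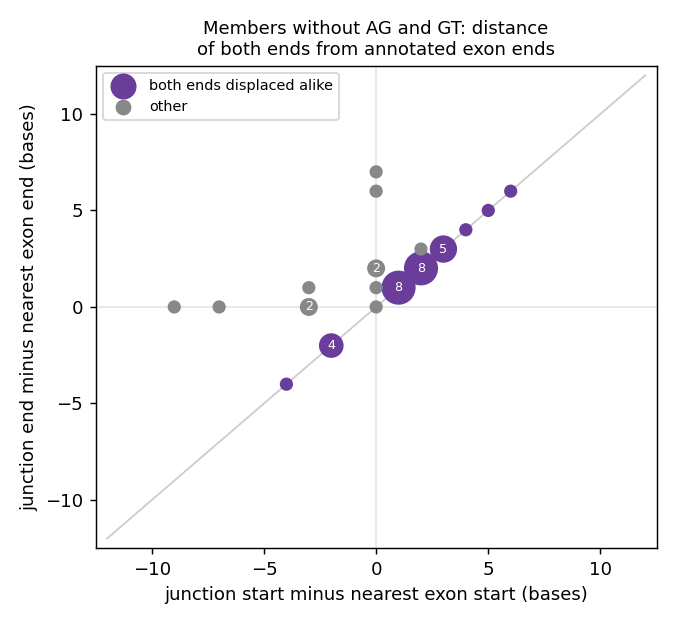
Distance in bases of the junction start (horizontal) and junction end (vertical) from the nearest M21 exon start and end, for the 41 members without AG and GT that have both distances within 12 bases. The area of a circle is in proportion to the number of members, printed where above 1, and 29 members lie on the diagonal away from 0.

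The other members without AG and GT were of mixed kinds. Neurl4 had 159 reads on chr11:69903325-69907609, with 29, 24 and 25 at 4-h post-hCG and 21, 40 and 20 at 0-h. Gm14026 (145 and 60 reads) and Gm8258 (26 reads) had more back-splice reads than linear counts, as did Trmt61b (13 reads against a linear count of 11), and these were the 4 such members. Gm5067 (128, 97 and 30 reads), Gm8258, Gm14026 and Gm10800 are predicted genes. How often their sequence recurs in the genome was not measured, so the place of their reads is uncertain. Both members of Inhba lie inside an exon of that gene.

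The libraries held 119094 to 156625 back-splice reads on gene-naming junctions at 4-h post-hCG and 128354 to 163145 at 0-h, and no library stood apart. Members detected per library numbered 418 to 439 at 4-h post-hCG and 407 to 443 at 0-h. By linear CPM of the best-covered junction of each gene, the 10 granulosa markers summed to 258 to 287 at 4-h post-hCG and 296 to 318 at 0-h, and markers of endothelium to 2.01 to 2.21 and 1.04 to 2.16, of immune cells to 0.634 to 0.701 and 0.616 to 0.856, of theca and stroma to 28.8 to 40.6 and 30.4 to 52.4, of red cells to 94.4 to 150 and 83.1 to 110 and of the oocyte to 7.70 to 9.10 and 6.84 to 7.72, in that order of groups. The granulosa sums did not overlap between the groups, and their part in the results was not tested. The genes of the granulosa list did not all move alike. Fshr stood at 1.05 to 2.23 linear CPM at 4-h post-hCG and 4.49 to 5.12 at 0-h. Inhba went the other way, with 74.1 to 91.0 and 43.2 to 69.9. In whole-sample RNA, fewer cells of a type and less RNA per cell cannot be told apart.

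Members took 2.51%, 2.20% and 2.35% of the gene-naming back-splice reads at 4-h post-hCG and 2.10%, 2.31% and 1.96% at 0-h. The means were 2.35% ± 0.153 and 2.12% ± 0.175 (SD, n = 3 each), the groups overlapped, and the difference of 0.229 percentage points had a p of 0.2 by a two-sided exact permutation test, which cannot go below 0.1 with 3 against 3 mice. Over the 3 shares tested, the adjusted p was 0.3 for each, with means of 1.22% and 1.11% for the exon-intergenic members and 1.13% and 1.02% for the intergenic-exon members, at 4-h post-hCG and 0-h.

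Circular reads rose at 4-h post-hCG in 3 members, 1 of Mpp7 and 2 of Gm10800, and fell in none. Each of the 3 had fewer than 10 reads at 0-h, so that it met the minimum only with its reads at 4-h post-hCG. The test was edgeR's quasi-likelihood test over all 8361 gene-naming junctions with at least 10 reads, with calls made where the adjusted p was 0.1 or lower and the fold change was 1.5 or more. The 3 are 0.559% of the members, against 0.167% of all tested junctions called higher and 0% called lower. An unadjusted p under 0.05 was given to 44 members (8.19%), against 5.55% of all junctions, and DESeq2 called 4 members higher and 0 lower, against 21 and 2 of all junctions. The median log2 change was 0.00 over the members and -0.01 over all junctions. After scaling, the groups did not overlap in 35 members with higher values (6.52%, against 5.14% of all junctions) and in 34 with lower values (6.33%, against 5.80%). In simulated counts of these depths, 36% of 4-fold and 6% of 2-fold changes in circular reads were called. The changed junctions were drawn from all tested junctions, not members alone, and the dispersion was fixed rather than estimated from these data.

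Mpp7, a scaffold protein of cell polarity, had 18, 12 and 28 reads at 4-h post-hCG, against 3, 0 and 1 reads at 0-h, on a junction from an acceptor in intron 1 to the exon 2 donor (chr18:7561726-7562708). Every 4-h post-hCG library was above every 0-h library. The log2 fold change was 3.83 (SE 0.755, adjusted p = 0.000658 by edgeR's quasi-likelihood test), and the adjusted p was 0.223 without 4-h post-hCG replicate 3. Its linear count was 60, 73 and 114 at 4-h post-hCG and 2, 3 and 3 at 0-h, a log2 fold change of 5.04 (SE 0.466). Another untyped junction with the same acceptor had 7 reads, all at 4-h post-hCG, and the most-read typed circRNA of Mpp7, from other exons, had 7, 22 and 12 reads at 4-h post-hCG, against 5, 6 and 1 reads at 0-h (adjusted p = 0.782).

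Gm10800 is a predicted gene. How often its sequence recurs in the genome was not measured, so both of its calls are uncertain as to place. The junction of 234 bp (chr2:98667100-98667333) had 32, 17 and 6 reads at 4-h post-hCG, against 1, 5 and 0 reads at 0-h, with a log2 fold change of 3.13 (SE 0.737, adjusted p = 0.0205 by edgeR's quasi-likelihood test). The junction of 4399 bp (chr2:98662828-98667226), which lacked AG and GT, had 42, 10 and 8 reads at 4-h post-hCG, against 0, 4 and 5 reads at 0-h (log2 fold change 2.60, adjusted p = 0.0664). The groups did not overlap on either. The shorter junction lost the call without 4-h post-hCG replicate 1 (adjusted p = 0.668), 0-h replicate 1 (0.275) or 0-h replicate 3 (0.32), and the longer one without 4-h post-hCG replicate 1 (0.972), 0-h replicate 1 (0.771) or 0-h replicate 2 (0.212). With filterByExpr neither was kept for the test, with no filter neither was called (adjusted p = 0.342 for both), and with the replicate block the longer one was not (0.241). Linear counts at the longer junction were 4256, 2050 and 998 at 4-h post-hCG and 207, 709 and 683 at 0-h.

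Next in order of p was Mast4,Gm6211, the entry of a microtubule-associated kinase, which did not pass (adjusted p = 0.104 by edgeR's quasi-likelihood test). Its junction from an acceptor in intron 1 to the exon 3 donor (chr13:103140163-103177145) had 19, 15 and 10 reads at 4-h post-hCG and 1, 0 and 4 reads at 0-h, a ratio of 9.09 in scaled reads with an exact counting interval of 3.61 to 29.4. The groups did not overlap, and it was called with DESeq2 (adjusted p = 0.0563), the RLE scaling of DESeq2 in edgeR (0.075), filterByExpr (0.0971) and without 0-h replicate 3 (0.033). Over the other alternatives its adjusted p was 0.1002 to 0.828. In the other direction, Psd3, an exchange factor for ARF6, had 0, 0 and 2 reads at 4-h post-hCG and 7, 13 and 4 reads at 0-h (ratio 0.086, counting interval 0.00985 to 0.347, adjusted p = 0.782), without overlap. AW554918, at chr18:25339714-25358453, had 0, 1 and 0 reads at 4-h post-hCG and 16, 1 and 4 reads at 0-h (ratio 0.0492, counting interval 0.00119 to 0.306, adjusted p = 0.662), and its groups overlapped. Without 4-h post-hCG replicate 3, a junction of Slc25a26, a mitochondrial carrier, was called lower (0, 0 and 6 reads at 4-h post-hCG, against 16, 7 and 8 at 0-h, adjusted p = 0.0526).

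**Figure D4:**
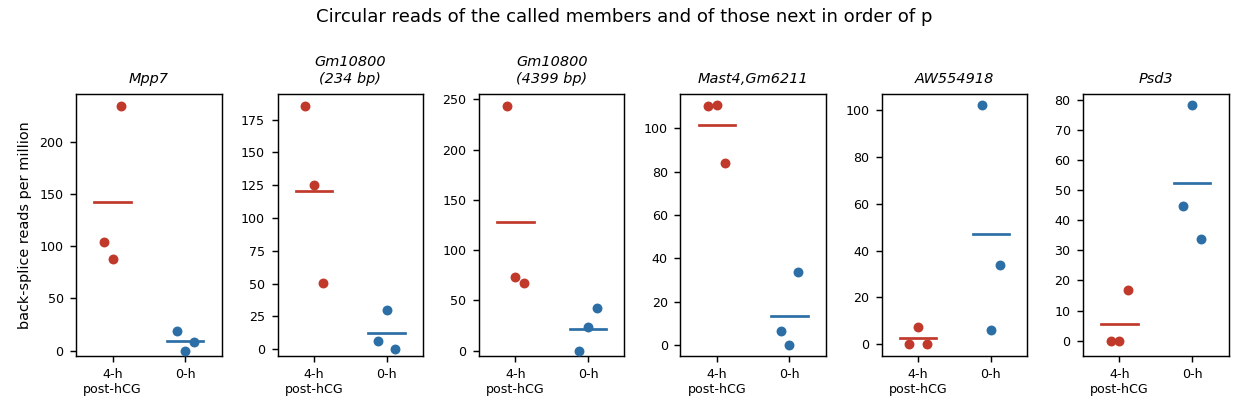
TMM-scaled CPM of back-splice reads (vertical axis, a scale of its own in each panel) for 6 members, with 4-h post-hCG at the left and 0-h at the right. Points are libraries and bars are means of 3 mice. Mpp7 and both Gm10800 junctions were called higher, the other 3 were not called, and AW554918 is the panel in which the groups overlap.

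Linear counts at the members moved more often. They rose at 4-h post-hCG at 78 members in 55 gene entries (14.5%, against 11.0% of all tested junctions) and fell at 52 members in 37 entries (9.68%, against 10.5%), by edgeR's quasi-likelihood test with the same thresholds. The median log2 change was -0.01 over the members and 0.01 over all junctions. Members of 1 gene can share linear counts and are not independent. The split depended on the scaling and on which junctions were fitted: it was 62 higher and 93 lower without a scaling factor, which moved the median of all junctions to -0.16, and 66 and 81 with the filter of edgeR on linear counts, and 67 and 84 with no filter.

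The largest increases with groups apart were, after Mpp7, those of Chst15, Runx1, Gpr98, Vcan and Slc7a8. Chst15, a sulfotransferase of chondroitin sulfate, had linear counts of 369, 261 and 343 at 4-h post-hCG, against 20, 10 and 4 at 0-h (log2 fold change 4.95, SE 0.297), beside 6, 6 and 11 back-splice reads at 4-h post-hCG and 1, 6 and 0 at 0-h, which overlapped. Its most-read typed circRNA did rise, with 26, 11 and 20 reads at 4-h post-hCG, against 2, 2 and 0 at 0-h (adjusted p = 0.0013 by edgeR's quasi-likelihood test). Runx1, a transcription factor that the LH surge induces in follicles, had linear counts of 385, 364 and 283 at 4-h post-hCG, against 18, 9 and 16 at 0-h (log2 fold change 4.66, SE 0.228). Its member, from an acceptor in intron 4 to the exon 6 donor (chr16:92644154-92682877), had 2, 2 and 6 reads at 4-h post-hCG and 0, 1 and 0 at 0-h, without overlap, and the counting interval of the ratio was 1.47 to 448. For Runx1 the most-read typed circRNA was not called (adjusted p = 0.988 by edgeR's quasi-likelihood test).

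Vcan, the proteoglycan versican of the follicular and cumulus matrix, had linear counts of 2479, 1485 and 1642 at 4-h post-hCG, against 146, 226 and 112 at 0-h (log2 fold change 3.65, SE 0.199), while its member (chr13:89702438-89705797) had 6, 0 and 0 reads at 4-h post-hCG and 3, 0 and 1 at 0-h, which overlapped. The most-read typed circRNA of Vcan had 94, 27 and 64 reads at 4-h post-hCG, against 4, 12 and 11 at 0-h. It was called higher (log2 fold change 2.77, adjusted p = 1.8e-09 by edgeR's quasi-likelihood test), and the next in reads was not (0.782). Slc7a8, an amino acid transporter, had linear counts of 2655, 1724 and 1738 at 4-h post-hCG, against 228, 193 and 175 at 0-h (log2 fold change 3.44, SE 0.183), and 6, 4 and 4 back-splice reads at 4-h post-hCG, against 1, 0 and 3 at 0-h, without overlap. Gpr98, an adhesion receptor, had linear counts of 318, 255 and 290 at 4-h post-hCG, against 27, 18 and 15 at 0-h (log2 fold change 3.95, SE 0.232). Each of these linear counts was above every 0-h value in all 3 libraries.

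Among the decreases, the largest with groups apart was that of Cacna1d, a calcium channel subunit, with linear counts of 4, 4 and 1 at 4-h post-hCG and 8, 13 and 10 at 0-h (log2 fold change -1.66, adjusted p = 0.0454 by edgeR's quasi-likelihood test). That call was lost without 4-h post-hCG replicate 3 (0.13), 0-h replicate 2 (0.116) or 0-h replicate 3 (0.116). Fam120c,U1 had 9, 9 and 11 at 4-h post-hCG and 38, 21 and 32 at 0-h (log2 fold change -1.56). Kcnma1, a potassium channel, had 17, 30 and 12 at 4-h post-hCG and 53, 38 and 52 at 0-h (log2 fold change -1.21), and Sppl3, an intramembrane protease, had 6, 13 and 6 at 4-h post-hCG and 16, 18 and 27 at 0-h (log2 fold change -1.20). The call on Sppl3 was lost without 4-h post-hCG replicate 1 (adjusted p = 0.179), 4-h post-hCG replicate 3 (0.105) or 0-h replicate 3 (0.275).

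Where linear counts were called higher, the circular log2 change had the same sign in 60 of 78 members, with a median of 0.84, and in 17 of them the circular groups did not overlap in that direction, against 14.8% of the 923 junctions of the whole table with linear counts called higher. Where linear counts were called lower, the circular sign was the same in 35 of 52, with a median of -0.36, and in 5 the circular groups did not overlap in that direction, against 10.1% of the 875 junctions called lower. Few reads per junction stand behind these circular values, and the 3 circular calls were all at members whose linear count was called higher.

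**Figure D5:**
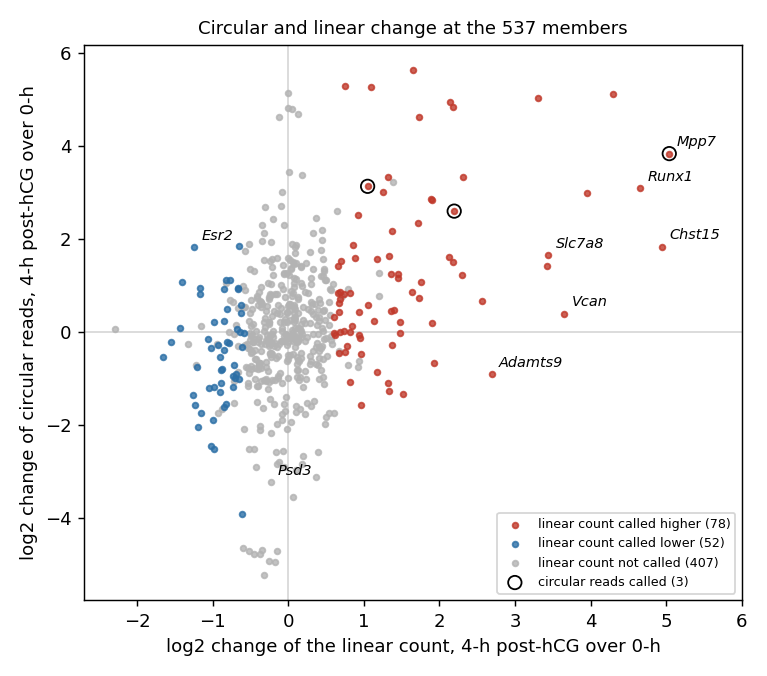
Log2 change of the linear count (horizontal) and of circular reads (vertical), 4-h post-hCG over 0-h, for the 537 members. Red and blue points are the 78 and 52 members with linear counts called higher and lower, and black rings mark the 3 members with circular reads called. Points beyond 4 in either direction on the vertical axis rest on few reads, and some have a group with no read.

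Of 35 genes of ovulation and steroid synthesis listed from the study and textbook knowledge, 7 had a member, for 11 members and 158 reads in all. None of the 11 was called in circular reads. Linear counts at 4 of them rose (Inhba at 2, Runx1 and Vcan) and at 5 fell (Esr2 at 3, Fshr and Cyp19a1), and both members of Lhcgr were not called, where 11.0% of all tested junctions were called higher and 10.5% lower. The median log2 change of the 11 was 0.40 in circular reads and 0.01 in linear counts, beside -0.01 and 0.01 over all junctions. Members of 1 gene are not independent, and the circular median is the value of the Vcan member, which rests on 10 reads (SE 1.71).

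Lhcgr, the receptor of LH and hCG, had 6, 3 and 5 reads at 4-h post-hCG, against 1, 0 and 0 reads at 0-h, on a junction from an acceptor in intron 1 to the exon 6 donor (chr17:88764982-88777766). The groups did not overlap, the ratio of 14.5 had a counting interval of 2.20 to 611, and the adjusted p was 0.782 by edgeR's quasi-likelihood test. Its linear count was 557, 272 and 260 at 4-h post-hCG and 367, 436 and 330 at 0-h, with overlap. The second Lhcgr member, from an acceptor nearer to exon 2 to the same donor, had 1, 5 and 1 reads at 4-h post-hCG and 2, 0 and 2 at 0-h, with overlap.

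Esr2, the estrogen receptor beta of granulosa cells, moved the other way in the linear count, which was 114, 123 and 67 at 4-h post-hCG, against 214, 304 and 243 at 0-h (log2 fold change -1.24, SE 0.17, adjusted p = 5.0e-06 by edgeR's quasi-likelihood test). Its member from an acceptor in intron 4 to the exon 8 donor (chr12:76133810-76146083) had 5, 9 and 4 reads at 4-h post-hCG and 0, 3 and 2 at 0-h, without overlap. The other 2 members of Esr2 had 1, 3 and 0, and 1, 2 and 0 reads at 4-h post-hCG, against 4, 8 and 0, and 1, 7 and 0 at 0-h, and overlapped. Fshr, the receptor of follicle-stimulating hormone, had linear counts of 108, 93 and 37 at 4-h post-hCG and 189, 216 and 179 at 0-h (log2 fold change -1.24), and 0, 3 and 2 back-splice reads at 4-h post-hCG and 0, 7 and 9 at 0-h. Cyp19a1, the aromatase that makes estradiol, had linear counts of 122, 128 and 83 at 4-h post-hCG and 251, 288 and 247 at 0-h (log2 fold change -1.16), and 0, 1 and 1 back-splice reads at 4-h post-hCG, against 2, 3 and 3 at 0-h.

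Inhba, which encodes the beta A subunit of activin and inhibin, had linear counts of 4220, 4232 and 3173 at 4-h post-hCG and 1730, 4095 and 1390 at 0-h at its more-read member. The groups did not overlap after scaling, and the log2 fold change of 0.84 passed (adjusted p = 0.00391 by edgeR's quasi-likelihood test), though not with DESeq2 (adjusted p = 0.116). Of 29 genes of splicing and RNA binding, 1 had a member. This was Rbm25, a splicing regulator, with 3, 0 and 1 reads at 4-h post-hCG and 1, 8 and 5 at 0-h, which overlapped, and a linear log2 fold change of 0.54 that was under the fold threshold.

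The ratio of circular to linear counts changed in 1 member, which was lower at 4-h post-hCG, and rose in none (0.287% of all junctions were called lower and 0.108% higher). An unadjusted p under 0.05 was given to 68 members (12.7%), against 1002 of the 8361 junctions, and DESeq2 called 11 members higher and 11 lower, against 179 and 170 of all 8361. The median log2 change of the ratio was 0.01 over the members and -0.03 over all junctions. The 1 call was at Adamts9, a metalloprotease that cleaves versican, with 3, 1 and 2 back-splice reads at 4-h post-hCG and 8, 2 and 2 at 0-h (chr6:92901377-92912914). Linear counts there were 536, 435 and 261 at 4-h post-hCG and 69, 69 and 60 at 0-h, so that the circular groups overlapped and the linear groups did not. The log2 change of the ratio was -3.62 (SE 0.906, adjusted p = 0.0604 by edgeR's quasi-likelihood test), and the call was kept when 4-h post-hCG replicate 3 was left out and lost without any other library, with adjusted p of 0.107 to 0.418. With the mouse as a block over its circular and linear columns, the call was also lost (adjusted p = 0.478), and the ratio calls over all junctions numbered 5, against 33 without the block. It was lost as well with filterByExpr (0.225), with no filter (0.269) and at an adjusted p of at most 0.05.

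This Adamts9 member is 1 of the 29 displaced ones. The typed circRNA of the same sequence, 2 bases away, had 12, 6 and 6 reads at 4-h post-hCG and 13, 15 and 4 at 0-h. Its ratio was also lower in the fit without the mouse as a block (log2 change -3.22, adjusted p = 0.00078 by edgeR's quasi-likelihood test). Both junctions have the same sequence and are set against linear counts of the same gene, so these results are not independent. For Esr2, the member from the intron 4 acceptor to the exon 8 donor just missed the ratio threshold (log2 change 3.15, adjusted p = 0.1003 by edgeR's quasi-likelihood test). Its ratio passed with DESeq2 (0.0106), with the size factors of DESeq2 in edgeR (0.0851) and without a scaling factor (0.0744). It was not called with filterByExpr, with no filter, with the mouse as a block or when any library was left out. The other Esr2 member with that acceptor had a log2 change of the ratio of -0.35 (adjusted p = 0.952 by edgeR's quasi-likelihood test). Without 4-h post-hCG replicate 2, a junction of Chst8 (9, 0 and 2 reads at 4-h post-hCG, against 0, 0 and 0 at 0-h) had a ratio called higher (adjusted p = 0.0655).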

How the data were processed

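Per the labels and the study's methods, stranded libraries of total RNA were read as paired ends. The authors used FastQC for read quality, cutadapt for trimming, TopHat with TopHat-Fusion for mapping to GRCm38 and CIRCexplorer to detect back splices. The authors deposited raw counts of back-splice reads and of the linear isoform for each junction and library. How the linear counts were made and which gene annotation the authors used are not given in the sources used here. Between 15.6% and 18.9% of the reads of a library fell on junctions without a gene name, which were left out of library sizes and tests. A second table of the authors holds typed circRNA only, with 36 columns of values per sample (normalized, raw and regularized log) and their fold changes and p-values, and was not used.

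The members and gene lists were chosen with earlier results of these data known. Ends were read against GENCODE M21, RefSeq and the GRCm38 sequence with pysam 0.24.0. The tests were quasi-likelihood F tests in edgeR 4.0.16 (R 4.3.3, TMM scaling, Benjamini-Hochberg adjustment over 8361 junctions, two-sided), circular and linear columns each in their own fit and the ratio as an interaction over all 12 columns. DESeq2 1.42.0, other scalings and filters, a replicate block and leaving out each library were the alternatives. Each standard error is the log2 fold change over the square root of F. The code was checked on simulated counts. Named were the 12 most-read members at 1 per gene entry (1 of them is not reported here), the called members with the largest changes, the 5 smallest p values, the members of both lists and those at the minimum, and further members to describe sets, chosen after their values were seen. Intervals cover counting error only, since reads without molecular identifiers are not independent molecules.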

Additional observations from a re-analysis of the deposited data

How the results depend on the processing

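Members called higher in circular reads numbered 1 with no filter and 1 to 3 when a library was left out, and those called lower 0 to 1. With no filter the median log2 change of all junctions in circular reads was -1.76. Linear counts were called lower at 81 members with filterByExpr, 84 with no filter and 93 without a scaling factor, and at 69 to 86 higher and 41 to 62 lower when a library was left out. For the ratio, 1 member was called higher with RLE scaling, 1 without a scaling factor and 11 with DESeq2 (0 to 1 without a library), and 0 lower at an adjusted p of at most 0.05, with filterByExpr, with no filter and with the mouse as a block, against 11 with DESeq2 (0 to 1 without a library). The linear log2 change of Lhcgr, near 0 and never called, turned sign. For chr17:88764982-88774078 it was -0.0530 with filterByExpr, -0.0512 with no filter, -0.11 without a scaling factor and -0.27 to 0.21 when a library was left out (lowest without 4-h post-hCG replicate 1). For chr17:88764982-88777766 it was -0.0950 with filterByExpr, -0.0932 with no filter, -0.0352 with the replicate block, -0.000174 with DESeq2, -0.16 without a scaling factor and -0.30 to 0.18 when a library was left out (lowest without the same one). The causes were not tested. The share of reads on members kept its direction under every alternative run, with differences of 0.149 to 0.322 percentage points when a library was left out.

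No clear pairing of the libraries by replicate number was seen: deviations of same-numbered libraries correlated at 0.0338, 0.0107 and 0.0111 in circular reads and at 0.0315, -0.0594 and -0.0604 in linear counts. In circular reads the best match was the same-numbered library for replicates 1 and 3 and not for replicate 2. With 3 libraries per group, these values cannot decide whether the libraries were paired. With the replicate block, 2 members were called higher in circular reads and 77 higher and 53 lower in linear counts. Members had a median of 17 reads over 6 libraries. Of simulated 2-fold changes in circular reads, drawn from all tested junctions and not members alone, 6% were called. The simulation used a fixed dispersion that was not estimated from these data, so it does not give the rate for members.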
